A study of Homo sapiens with 9 samples.

Results

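The inhibitor of apoptosis (IAP) genes BIRC2, BIRC3, XIAP and BIRC6 and the death receptor genes TNFRSF10A, FADD, RIPK1, CASP8, CASP10 and CFLAR were followed in a colorectal cancer cell line and its chemoresistant derivatives. These 10 of the 19976 genes in the mRNA table were taken by symbol, and they were selected on their CPM in these libraries, that is, with a gene's counts relative to the library total already known. Their values and differences below are therefore a description and carry no test. All 10 passed the filter on low counts in every comparison.

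The study set HCT8/5-Fu cells and HCT8/DDP cells against the parental HCT8 cells to find RNAs that differ in chemoresistant cells. HCT8 is an established human colorectal adenocarcinoma line of epithelial origin. HCT8/5-Fu and HCT8/DDP were each raised from HCT8 by rising doses of a drug over months and were then kept in that drug. The drug was 5-fluorouracil, a pyrimidine analog, for HCT8/5-Fu and cisplatin (DDP), which crosslinks DNA, for HCT8/DDP. HCT8 is drug-sensitive and was grown without drug in the same medium. Since each drug has a single resistant line, the drug itself, its presence in the medium and the history of the line cannot be told apart. Each line had 3 libraries of total RNA depleted of rRNA. The study's methods also describe RNase R, which removes linear RNA. Whether the mRNA values come from libraries treated in that way is not given. The sources do not say whether the 3 libraries of a line came from separate cultures. A p-value here therefore sets a difference against the scatter of libraries that may be technical replicates.

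IAP proteins carry BIR domains. XIAP binds and blocks caspases, whereas BIRC2 (cIAP1) and BIRC3 (cIAP2) are ubiquitin ligases at TNF receptors, where they modify RIPK1 and keep NF-kappaB signaling on and death signaling off. BIRC6 is a very large IAP that is also a ubiquitin-conjugating enzyme. At a death receptor such as TNFRSF10A, a receptor of the ligand TRAIL, ligand binding gathers FADD, CASP8 and CASP10 into a death-inducing signaling complex (DISC), and CFLAR (c-FLIP) limits caspase activation there. In intestinal epithelium these genes are known for their part in inflammation and in the balance of survival and cell death.

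The libraries held 19753035 to 28535882 counts. HCT8/5-Fu replicate 1 stood apart from the other libraries of its line, with 4.87% of genes (mean of at least 5 CPM, on the log2(CPM + 1) scale) more than 2-fold from another library of the line, averaged over both pairs, against 0.115% to 2.70% for the other 8 libraries. On another measure HCT8 replicate 1 also stood apart. Its squared count differences, in units of counting variance and averaged over genes, were 48.9 and 41.9 to HCT8 replicates 2 and 3. Between replicates 2 and 3 the value was 4.59. For HCT8/5-Fu replicate 1 the values were 94.4 and 90.1, against 5 between HCT8/5-Fu replicates 2 and 3. For the 10 genes, and for TNFRSF1A, RELA and MAP3K7, whose call HCT8/5-Fu replicate 1 decides, the difference from HCT8 is also given without that library. All 6 simple epithelial marker genes exceeded 10 CPM in every line, and the sum of the 6 was 13000 to 15500 CPM in HCT8/5-Fu, 9060 to 10400 CPM in HCT8/DDP and 5100 to 6370 CPM in HCT8, with KRT8 and KRT18 as its main part. The 6 intestinal genes summed to 559 to 668 CPM in HCT8/5-Fu, 602 to 711 CPM in HCT8/DDP and 492 to 668 CPM in HCT8. The 6 leukocyte genes summed to 0.461 to 1.30 CPM in HCT8/5-Fu, 2.02 to 2.72 CPM in HCT8/DDP and 3.92 to 4.91 CPM in HCT8. PTPRC, CD3E and CD53 were at 0 in all libraries. CD14 was the main part of the sum, with means of 1.01 CPM in HCT8/5-Fu, 2.25 CPM in HCT8/DDP and 3.95 CPM in HCT8. The 6 fibroblast genes summed to 6.75 to 7.85 CPM in HCT8/5-Fu, 11.4 to 14 CPM in HCT8/DDP and 8.96 to 12.1 CPM in HCT8. The part of these differences in the results below was not tested. In such bulk samples, fewer cells with a transcript and less transcript per cell cannot be told apart.

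BIRC3 and BIRC2 lie side by side on chromosome 11, so the sequences before their starts are shown first. NF-kappaB is the transcription factor that BIRC2 and BIRC3 help to switch on, and BIRC3 is a textbook target of it. BIRC3 occupies chr11:102317450-102339403 on the plus strand in the coordinates of the file, which match GRCh38, and BIRC2 occupies chr11:102347211-102378670 on the same strand. The stretches below are from RefSeq (GRCh38.p14, plus strand, 5′ to 3′, chr11:102317234-102317453 and chr11:102346964-102347223). Both begin 250 bases before the gene start in RefSeq, base 102317484 for BIRC3 and base 102347214 for BIRC2, which differ from the gene starts of the file. Distances from a start below refer to the RefSeq start. Capitals mark a match to the NF-kappaB consensus in BIRC3, 199 bases before the start, and a match to the cyclic AMP response element (CRE) in BIRC2, 7 bases before the start.
BIRC3: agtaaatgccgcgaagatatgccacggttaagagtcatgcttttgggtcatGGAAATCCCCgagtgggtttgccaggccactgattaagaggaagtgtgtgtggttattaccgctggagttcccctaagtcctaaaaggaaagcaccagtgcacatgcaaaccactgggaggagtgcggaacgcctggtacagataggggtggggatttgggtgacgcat
BIRC2: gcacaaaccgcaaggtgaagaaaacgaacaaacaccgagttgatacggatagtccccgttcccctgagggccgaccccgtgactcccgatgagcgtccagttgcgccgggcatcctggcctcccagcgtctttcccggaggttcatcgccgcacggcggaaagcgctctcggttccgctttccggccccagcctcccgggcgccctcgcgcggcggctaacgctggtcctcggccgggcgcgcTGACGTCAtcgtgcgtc
The CRE was searched as TGACGTCA and the NF-kappaB consensus by its usual degenerate form, both on either strand. In windows of 300 bases (250 before the start and 50 after it), the NF-kappaB consensus was found in 2500 of 27305 genes (9.16%), or in 7.73% of the 35116 windows, and the CRE in 614 genes (2.25%), or in 1.85% of windows. Of the 10 genes, 8 had such a window. The NF-kappaB consensus was found in BIRC3 and BIRC6 and the CRE in BIRC2. A match is a description of the letters and shows no binding.

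BIRC3 was the gene of the 10 with the lowest level in the resistant lines relative to HCT8. It had 12.8, 6.45 and 3.90 CPM in the HCT8/5-Fu libraries, against 61.9, 50.4 and 49.2 CPM in the HCT8 libraries. The HCT8/DDP libraries had 7.26, 6.70 and 6.46 CPM. Every resistant library lay far below every HCT8 library, and HCT8/5-Fu replicate 1 was the highest of the 6. The mean was 7.73 ± 4.61 CPM in HCT8/5-Fu, 6.80 ± 0.408 CPM in HCT8/DDP and 53.8 ± 7.01 CPM in HCT8 (SD, n = 3 each). On the log2 scale, with trimmed mean (TMM) scaling of the libraries, the difference from HCT8 was -2.74 (SE 0.329, 6.67-fold lower) for HCT8/5-Fu and -2.86 (SE 0.122, 7.26-fold lower) for HCT8/DDP. Leaving out 1 library at a time moved these to between -3.21 and -2.43 and to between -2.91 and -2.78, and the value of -3.21 was without HCT8/5-Fu replicate 1.

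**Figure D1:**
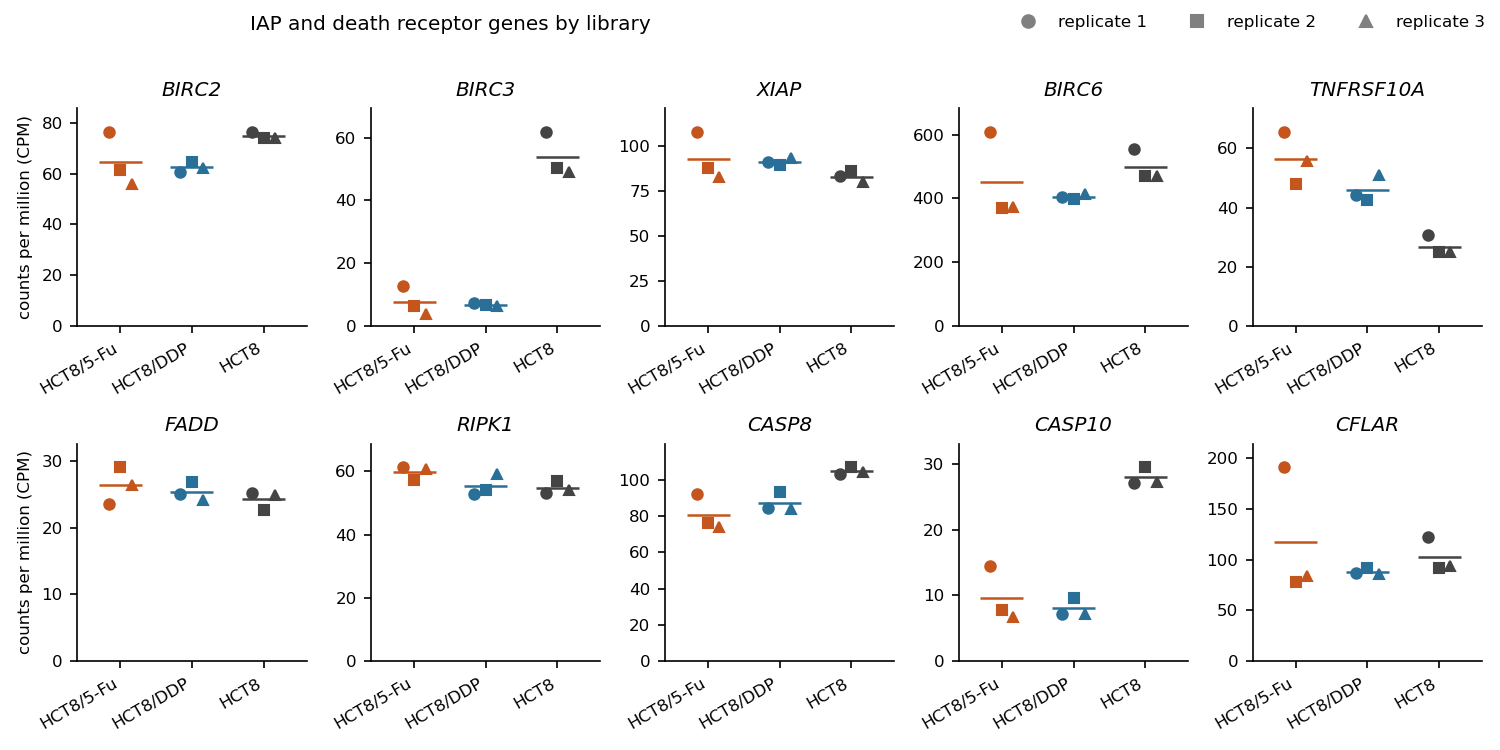
CPM of each of the 10 genes in each library (y axis from 0), with HCT8/5-Fu, HCT8/DDP and HCT8 from left to right. Symbols are replicates and lines are means. For BIRC3 and CASP10 every resistant library lies below the HCT8 libraries, for TNFRSF10A every resistant library lies above them, and for CFLAR 1 HCT8/5-Fu library (191 CPM) lies far above the rest.

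BIRC2, whose protein shares its ligase activity with BIRC3, was close to its HCT8 level. It had 76.5, 61.4 and 55.8 CPM in HCT8/5-Fu, 60.6, 64.4 and 62.4 CPM in HCT8/DDP, and 76.3, 74.2 and 73.9 CPM in HCT8. HCT8/5-Fu overlapped HCT8 through replicate 1, and all HCT8/DDP libraries were below HCT8. Its log2 difference from HCT8 was -0.12 (SE 0.112) for HCT8/5-Fu and -0.14 (SE 0.085) for HCT8/DDP. Without HCT8/5-Fu replicate 1 the HCT8/5-Fu difference was -0.185. Per gene length, the FPKM of BIRC3 divided by that of BIRC2 was 0.101, 0.0633 and 0.0421 in HCT8/5-Fu, 0.0722, 0.0627 and 0.0624 in HCT8/DDP, and 0.489, 0.410 and 0.401 in HCT8. The paralogs share similar exons, and the counting could split reads between them, so this ratio is uncertain to that extent.

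XIAP, the direct caspase inhibitor of the family, was slightly higher in the resistant lines. It had 108, 87.7 and 83.1 CPM in HCT8/5-Fu, 91.4, 89.4 and 93.3 CPM in HCT8/DDP, and 83.2, 86.2 and 79.8 CPM in HCT8. HCT8/5-Fu overlapped HCT8 and HCT8/DDP did not. On the log2 scale it differed by 0.26 in both lines (SE 0.109 for HCT8/5-Fu and 0.087 for HCT8/DDP). Without HCT8/5-Fu replicate 1 the HCT8/5-Fu difference was 0.205.

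BIRC6 had 609, 369 and 373 CPM in HCT8/5-Fu, 405, 397 and 414 CPM in HCT8/DDP, and 554, 469 and 471 CPM in HCT8. Replicate 1 was the highest library in both HCT8/5-Fu and HCT8, and HCT8/DDP lay below HCT8 in all 3 libraries. The log2 difference was -0.056 (SE 0.175) for HCT8/5-Fu, and it was -0.26 without HCT8/5-Fu replicate 1 and 0.041 without HCT8/5-Fu replicate 2. For HCT8/DDP it was -0.18 (SE 0.0952). The stretch chr2:32356786-32356839 (plus strand) holds its match to the NF-kappaB consensus in capitals, 215 bases before the start. The window of another RefSeq start of BIRC6 held no match. The stretch is shown because BIRC6 and BIRC3 share a match to this consensus and differ in level change.
BIRC6: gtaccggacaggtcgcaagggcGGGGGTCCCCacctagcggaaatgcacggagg

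TNFRSF10A, the death receptor of the set, was higher in both resistant lines. It had 65.6, 48.1 and 55.6 CPM in HCT8/5-Fu, 44.2, 42.5 and 51.1 CPM in HCT8/DDP, and 30.6, 24.8 and 24.8 CPM in HCT8. No resistant library overlapped HCT8. The mean was 56.4 ± 8.81 CPM in HCT8/5-Fu, 45.9 ± 4.57 CPM in HCT8/DDP and 26.7 ± 3.34 CPM in HCT8 (SD, n = 3 each). The log2 difference was 1.18 (SE 0.128, 2.26-fold) for HCT8/5-Fu and 0.91 (SE 0.116, 1.87-fold) for HCT8/DDP, and leaving out 1 library gave 1.13 to 1.26 and 0.81 to 0.99. The value of 1.13 was without HCT8/5-Fu replicate 1.

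The adaptor FADD links the receptor to the caspases. Its levels were 23.5, 29.1 and 26.4 CPM in HCT8/5-Fu, 25, 26.9 and 24.1 CPM in HCT8/DDP, and 25.2, 22.6 and 24.9 CPM in HCT8. The 3 lines overlapped, with log2 differences from HCT8 of 0.24 for HCT8/5-Fu and 0.18 for HCT8/DDP. Without HCT8/5-Fu replicate 1 the HCT8/5-Fu difference was 0.36. RIPK1, the kinase that BIRC2 and BIRC3 ubiquitinate, had 61.4, 57.2 and 60.7 CPM in HCT8/5-Fu, 53.0, 54.0 and 59.1 CPM in HCT8/DDP, and 53.1, 57.0 and 54.1 CPM in HCT8. The HCT8/5-Fu libraries lay just above HCT8 (57.2 against 57.0 CPM at the nearest) and HCT8/DDP overlapped it. The log2 difference was 0.23 for HCT8/5-Fu (0.27 without its replicate 1) and 0.14 for HCT8/DDP.

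CASP10, an initiator caspase of the DISC, was lower in both resistant lines. It had 14.4, 7.71 and 6.74 CPM in HCT8/5-Fu, 7.18, 9.63 and 7.21 CPM in HCT8/DDP, and 27.0, 29.5 and 27.3 CPM in HCT8. The resistant libraries did not overlap HCT8, and HCT8/5-Fu replicate 1 was again the nearest to it. The mean was 9.60 ± 4.15 CPM in HCT8/5-Fu, 8.01 ± 1.41 CPM in HCT8/DDP and 27.9 ± 1.36 CPM in HCT8 (SD, n = 3 each). The log2 difference was -1.47 (SE 0.237, 2.77-fold lower) for HCT8/5-Fu and -1.68 (SE 0.148, 3.21-fold lower) for HCT8/DDP, with -1.78 for HCT8/5-Fu when its replicate 1 was left out.

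CASP8, the main initiator caspase of the DISC, differed less than CASP10. It had 92.3, 76.1 and 73.7 CPM in HCT8/5-Fu, 84.3, 93.2 and 83.9 CPM in HCT8/DDP, and 103, 107 and 104 CPM in HCT8. In CPM, which carries no TMM scaling, both resistant lines lay below HCT8 without overlap. In log2 terms the difference was -0.28 (SE 0.105) for HCT8/5-Fu and -0.15 (SE 0.0887) for HCT8/DDP. Without HCT8/5-Fu replicate 1 the HCT8/5-Fu difference was -0.32. The FPKM of CASP10 divided by that of CASP8 was 0.148, 0.0965 and 0.0872 in HCT8/5-Fu, 0.0813, 0.0985 and 0.0819 in HCT8/DDP, and 0.249, 0.262 and 0.250 in HCT8.

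CFLAR, the catalytically inactive relative of CASP8 that restrains it, turned on 1 library. It had 191, 78.1 and 83.4 CPM in HCT8/5-Fu, 86.4, 91.3 and 85.9 CPM in HCT8/DDP, and 122, 91.7 and 93.6 CPM in HCT8. The 191 CPM belonged to HCT8/5-Fu replicate 1, and the log2 difference of HCT8/5-Fu was 0.27 (SE 0.277) with it and -0.17 without it. HCT8/DDP gave -0.097 (SE 0.102), and 0.019 without HCT8 replicate 1. The FPKM of CFLAR divided by that of CASP8 was 0.667, 0.330 and 0.365 in HCT8/5-Fu, 0.331, 0.316 and 0.330 in HCT8/DDP, and 0.380, 0.276 and 0.290 in HCT8. The size of this ratio rests on the lengths in the file, 22479 bases for CFLAR and 7243 for CASP8. Without division by length, their means in HCT8 were 102 and 105 CPM.

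**Figure D2:**
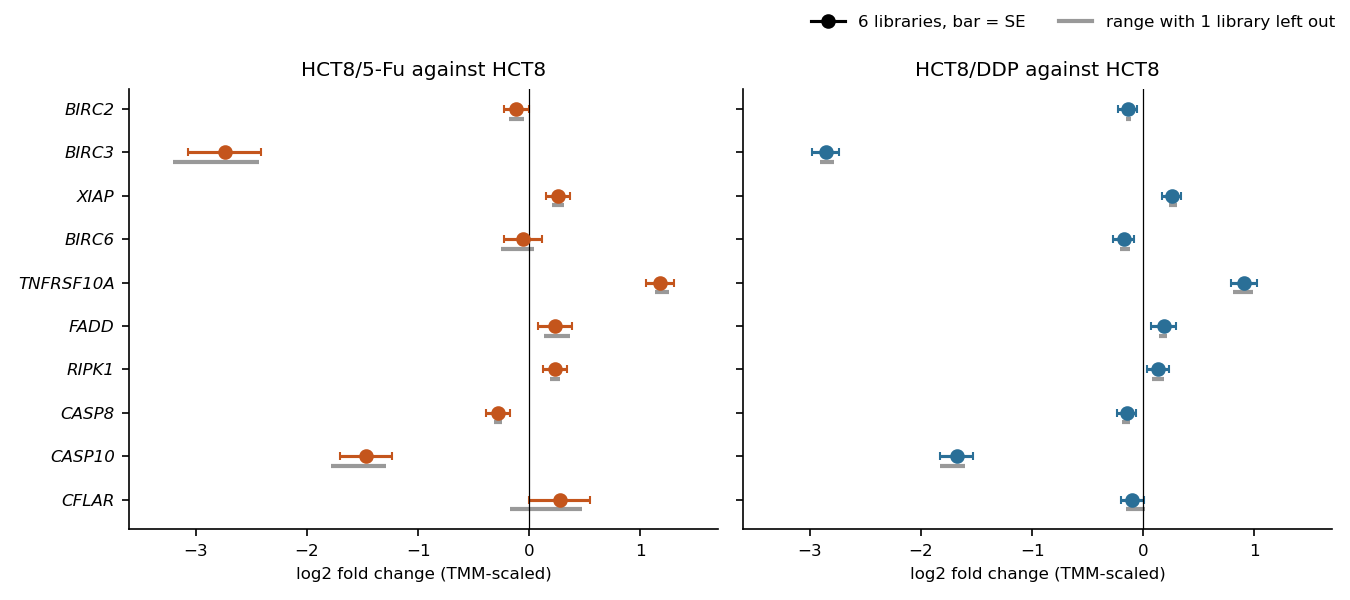
TMM-scaled log2 fold change of the 10 genes (x axis) in HCT8/5-Fu against HCT8 (left) and HCT8/DDP against HCT8 (right). Points are fits to 6 libraries, bars are SE and gray lines the range with 1 library left out. BIRC3 (-2.74 and -2.86) and CASP10 (-1.47 and -1.68) lie left of 0, TNFRSF10A (1.18 and 0.91) lies right of it, and the range of CFLAR spans 0 in both panels.

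In HCT8/5-Fu, 2 of the 10 genes (TNFRSF10A and RIPK1) had CPM entirely above HCT8, where 21.1% of the 13228 genes tested did, and 3 (BIRC3, CASP8 and CASP10) entirely below, where 30.4% did. In HCT8/DDP, 2 (TNFRSF10A and XIAP) were entirely above HCT8, where 23.0% of 13373 genes were, and 6 (BIRC2, BIRC3, BIRC6, CFLAR, CASP8 and CASP10) entirely below, where 38.2% were. The median log2 difference of the 10 was 0.087 for HCT8/5-Fu and -0.12 for HCT8/DDP, beside -0.0042 and -0.014 over all genes tested. Overlap was judged on CPM without TMM scaling, and small gaps between lines can depend on that. Both comparisons share the HCT8 libraries. Scaling by library totals in place of TMM moved the median of all genes to -0.11 and -0.13, and it left the sign of the difference from HCT8 unchanged for each of the 10 genes.

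Between the resistant lines, the 10 genes were close. None of them had CPM in HCT8/DDP entirely above or entirely below HCT8/5-Fu, where 14.2% and 13.7% of 13012 genes did. The log2 difference of HCT8/DDP from HCT8/5-Fu was between -0.39 (CFLAR) and 0.12 (CASP8), with a median of -0.12 beside -0.010 over all genes. TNFRSF10A was at -0.29 (SE 0.121), BIRC3 at -0.15 (SE 0.352) and CASP10 at -0.23. Without HCT8/5-Fu replicate 1, CFLAR was at 0.061, BIRC3 at 0.33 and CASP10 at 0.086, and TNFRSF10A at -0.24.

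Levels were compared between genes per gene length, in FPKM, which divides counts by the gene length given in the file. The order of genes depends on these lengths. Whether they match the transcripts present in these cells was not tested. In HCT8 the order was BIRC6 (27.9 FPKM), BIRC2 (16.5), CASP8 (14.5), FADD (13.2), RIPK1 (13.2), XIAP (9.21), TNFRSF10A (9.13), BIRC3 (7.16), CFLAR (4.56) and CASP10 (3.67 FPKM). FADD overlapped RIPK1 and XIAP overlapped TNFRSF10A, and the other neighbours in this order did not overlap. By mean, TNFRSF10A stood behind BIRC6 alone in HCT8/5-Fu (19.3 FPKM, overlapping BIRC6) and in HCT8/DDP (15.7 FPKM, no overlap with BIRC6). BIRC3 was the lowest of the 10 in both, at 1.03 FPKM in HCT8/5-Fu and 0.905 FPKM in HCT8/DDP, and overlapped CASP10 at 1.26 and 1.05 FPKM.

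**Figure D3:**
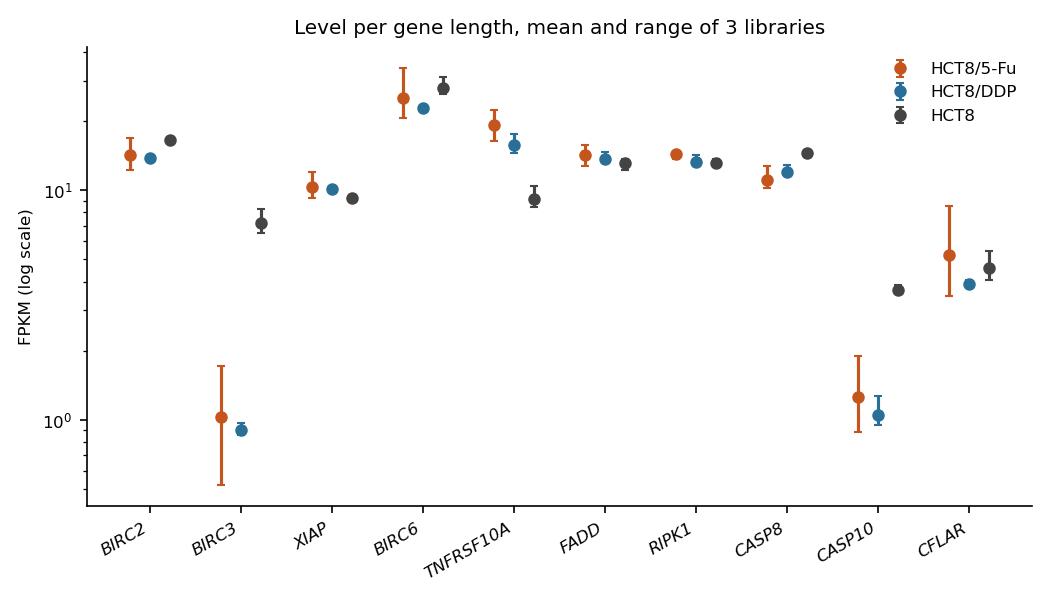
FPKM of the 10 genes on a log axis in HCT8/5-Fu, HCT8/DDP and HCT8. Points are means and bars the range of 3 libraries. The mean of BIRC3 is 1.03 in HCT8/5-Fu and 0.905 in HCT8/DDP, against 7.16 in HCT8.

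The place of the genes in the genome was examined next. CFLAR (chr2:201116154-201176687), CASP10 (chr2:201182881-201229406) and CASP8 (chr2:201233443-201287711) follow one another on the plus strand. Of the 10 nearest measured genes around them, 5 on each side, 9 were tested in both comparisons. Of these 9, 4 fell in HCT8/5-Fu (18.3% of all genes did) and 6 in HCT8/DDP (25.5%). HYCC2 fell by 0.81 and 0.69 on the log2 scale in HCT8/5-Fu and HCT8/DDP (edgeR adjusted p = 0.00105 and 0.000121). STRADB, which encodes a pseudokinase, fell by 0.95 and 1.39 (adjusted p = 0.00124 and 3.89e-06). FLACC1, the gene next to CASP8, fell by 1.68 and 0.93 (adjusted p = 0.00284 and 0.0118), and TRAK2, a kinesin adaptor, by 0.70 and 0.73 (adjusted p = 0.0114 and 0.000359). ORC2, a subunit of the origin recognition complex, and NDUFB3, a subunit of respiratory complex I, fell in HCT8/DDP by 0.29 and 0.41 (adjusted p = 0.034 and 0.0308). Over the 9 tested neighbours the log2 difference spanned -1.68 to 0.021 in HCT8/5-Fu and -1.39 to -0.22 in HCT8/DDP. CASP10, at -1.47 and -1.68, lay inside that span in HCT8/5-Fu and below it in HCT8/DDP.

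Around BIRC3 and BIRC2 only 3 of 10 neighbours had enough counts to be tested, and none of the 3 had a difference near that of BIRC3. YAP1, the transcriptional coactivator on the other side of BIRC3, had a log2 difference of 0.52 in HCT8/5-Fu (adjusted p = 0.0549) and rose by 0.30 in HCT8/DDP (adjusted p = 0.035). CEP126, a centrosomal gene, had 0.49 in HCT8/5-Fu (adjusted p = 0.166) and rose by 0.82 in HCT8/DDP (adjusted p = 0.00086). TMEM123, next to BIRC2, had -0.084 and 0.17 (adjusted p = 0.635 and 0.124). Over all genes, edgeR called 20.4% higher and 18.3% lower in HCT8/5-Fu, and 27.0% higher and 25.5% lower in HCT8/DDP, at an adjusted p under 0.05.

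**Figure D4:**
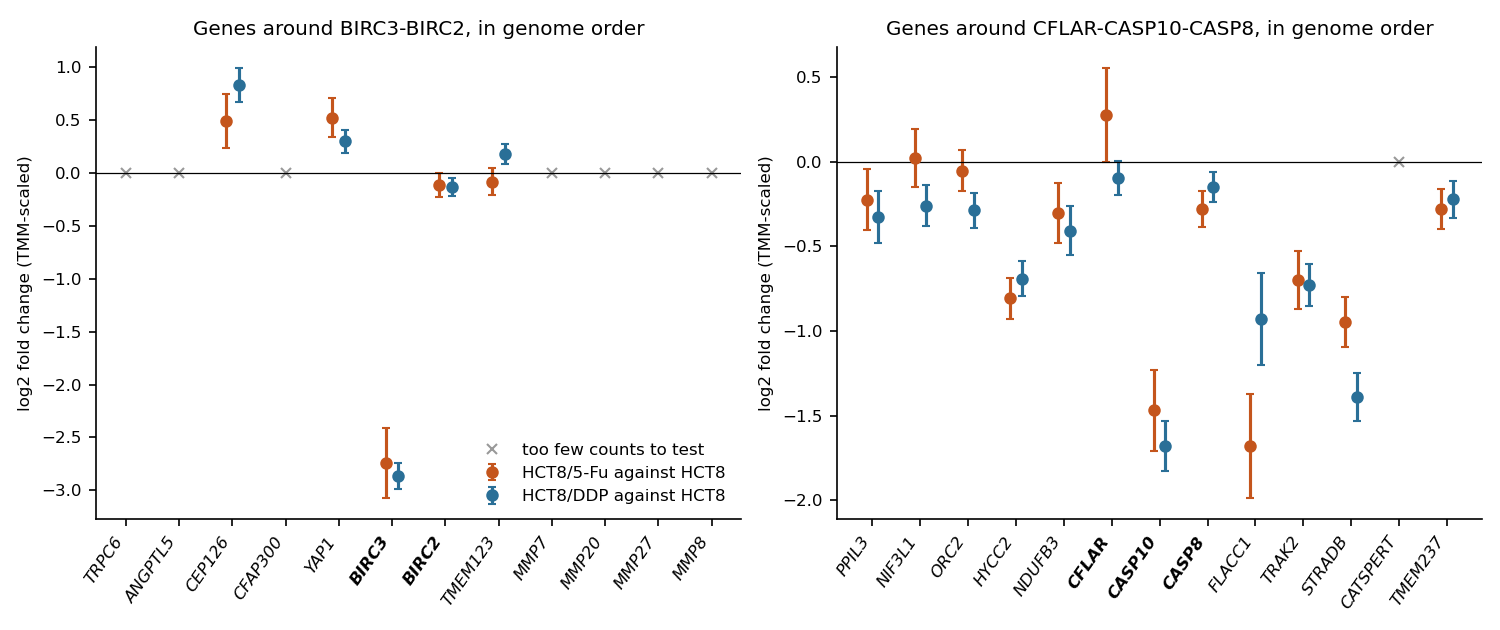
TMM-scaled log2 fold change (y axis, bars SE) of the genes around BIRC3 and BIRC2 (left) and around CFLAR, CASP10 and CASP8 (right) in genome order, for HCT8/5-Fu and HCT8/DDP against HCT8. Bold names are the IAP and DISC genes and crosses genes with too few counts. BIRC3 stands at -2.74 and -2.86 beside BIRC2 at -0.12 and -0.14, while on the right CASP10, FLACC1 and STRADB reach -0.93 or lower.

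The other genes of the pathway were taken from 13 lists of 80 genes, of which 79 were measured. In HCT8/5-Fu, 19 of the 69 tested rose (27.5%, against 20.4% of all genes) and 10 fell (14.5%, against 18.3%), with a median log2 difference of 0.040. In HCT8/DDP, 24 of 71 rose (33.8%, against 27.0%) and 17 fell (23.9%, against 25.5%), with a median of 0.023. The rising count for HCT8/5-Fu was 12 without HCT8 replicate 2, and the falling count was 20 without HCT8/5-Fu replicate 1. The rising count for HCT8/DDP was 16 without HCT8 replicate 3 and 15 with scaling by library totals. The lists were drawn up with earlier results of these data known, so these counts are a description. They include genes that passed the filter on low counts through the higher group alone. Among those that fell these were TNFSF10 and RIPK3 in both lines and XAF1 in HCT8/DDP. Among those that rose it was TNFRSF11B in both lines.

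Receptors of the 3 receptor lists accounted for 8 of the 19 pathway genes that rose in HCT8/5-Fu and for 9 of the 24 in HCT8/DDP. Both counts include the decoy receptor TNFRSF11B, which had 10 counts in HCT8 and passed the filter through the resistant lines alone. Of the 5 other death receptors, 3 rose in HCT8/5-Fu (20.4% of all genes did) and 4 in HCT8/DDP (27.0%). TNFRSF10B, the other signaling receptor for TRAIL and a neighbour of TNFRSF10A on chromosome 8, had 187, 127 and 133 CPM in HCT8/5-Fu, 121, 123 and 137 CPM in HCT8/DDP, and 90.5, 66.2 and 64.5 CPM in HCT8. It rose by 1.11 (SE 0.156, adjusted p = 0.000731) and 0.91 (SE 0.118, adjusted p = 3.53e-05) on the log2 scale, sizes close to those of TNFRSF10A. The FPKM of TNFRSF10A divided by that of TNFRSF10B was 0.602, 0.646 and 0.717 in HCT8/5-Fu, 0.626, 0.593 and 0.639 in HCT8/DDP, and 0.578, 0.640 and 0.659 in HCT8, so the ranges overlapped in all 3 lines. TNFRSF10D, a decoy receptor for TRAIL at the same place, rose by 1.56 (adjusted p = 0.000145) in HCT8/5-Fu and 0.88 (adjusted p = 0.00019) in HCT8/DDP. These receptors resemble one another in sequence, and the counting could have shared reads among them. Of the 8 tested neighbours of TNFRSF10A, TNFRSF10B and TNFRSF10D included, 2 rose in HCT8/5-Fu (20.4% of all genes did), and 3 rose (27.0%) and 1 fell (25.5%) in HCT8/DDP.

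FAS, the receptor for FAS ligand, had 61.3, 30.9 and 30.6 CPM in HCT8/5-Fu, 19.0, 23.0 and 34.2 CPM in HCT8/DDP, and 16.3, 9.78 and 10.6 CPM in HCT8. All resistant libraries were above HCT8, and it rose by 1.83 (SE 0.27, adjusted p = 0.000928) in HCT8/5-Fu and 1.19 (SE 0.224, adjusted p = 0.000706) in HCT8/DDP. TNFRSF21 (DR6), a death receptor, had 246, 231 and 236 CPM in HCT8/5-Fu, 255, 259 and 250 CPM in HCT8/DDP, and 98.6, 79.8 and 85.2 CPM in HCT8. It rose by 1.54 (adjusted p = 2.37e-05) and 1.66 (adjusted p = 1.78e-08). TNFRSF1A, the main receptor of TNF, rose by 0.64 in HCT8/DDP (adjusted p = 0.00156) and had a difference of 0.41 in HCT8/5-Fu (adjusted p = 0.115). Without HCT8/5-Fu replicate 1 the difference in HCT8/5-Fu was 0.58 (adjusted p = 0.00933).

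All 3 tested TNF receptors without a death domain rose in both lines, where 20.4% (HCT8/5-Fu) and 27.0% (HCT8/DDP) of all genes did. TNFRSF1B, the other TNF receptor, which recruits TRAF2 and the cIAPs, had 99.1, 91.1 and 90.1 CPM in HCT8/5-Fu, 100, 109 and 106 CPM in HCT8/DDP, and 31.0, 26.5 and 28.8 CPM in HCT8. It rose by 1.80 (adjusted p = 6.76e-06) and 1.99 (adjusted p = 3.4e-09). TNFRSF12A, the receptor of TWEAK, rose by 1.49 (adjusted p = 9.65e-05) and 1.10 (adjusted p = 9.74e-06). LTBR, the lymphotoxin beta receptor, rose by 0.82 (adjusted p = 0.000845) and 0.57 (adjusted p = 0.000389).

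Of the ligands, TNF had 35 counts over the 3 HCT8 libraries (0.709, 0.345 and 0.555 CPM) and 0 counts in all 6 resistant libraries. With a floor of 3 counts per line, HCT8/5-Fu was at least 13.5-fold lower than HCT8, and HCT8/DDP was at least 14.4-fold lower. This floor covers counting error only. TNFSF10, the gene of TRAIL itself, had 0.353, 0 and 0 CPM in HCT8/5-Fu, 0.111, 0.0358 and 0.112 CPM in HCT8/DDP, and 0.709, 1.46 and 0.768 CPM in HCT8. These are 7, 7 and 66 counts per line, so TNFSF10 passed the filter on low counts through HCT8 alone and no test is given. Both genes were named after their values were seen. TNFSF15, which binds TNFRSF25, was better expressed, with its highest value in HCT8/5-Fu replicate 1. It had 73.5, 38 and 39.9 CPM in HCT8/5-Fu, 33.5, 34.3 and 31 CPM in HCT8/DDP, and 34.4, 31.1 and 28.9 CPM in HCT8. It rose by 0.76 in HCT8/5-Fu (adjusted p = 0.0179), with an adjusted p of 0.0502 to 0.0687 when any 1 HCT8 library was left out and of 0.0587 with library totals.

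**Figure D5:**
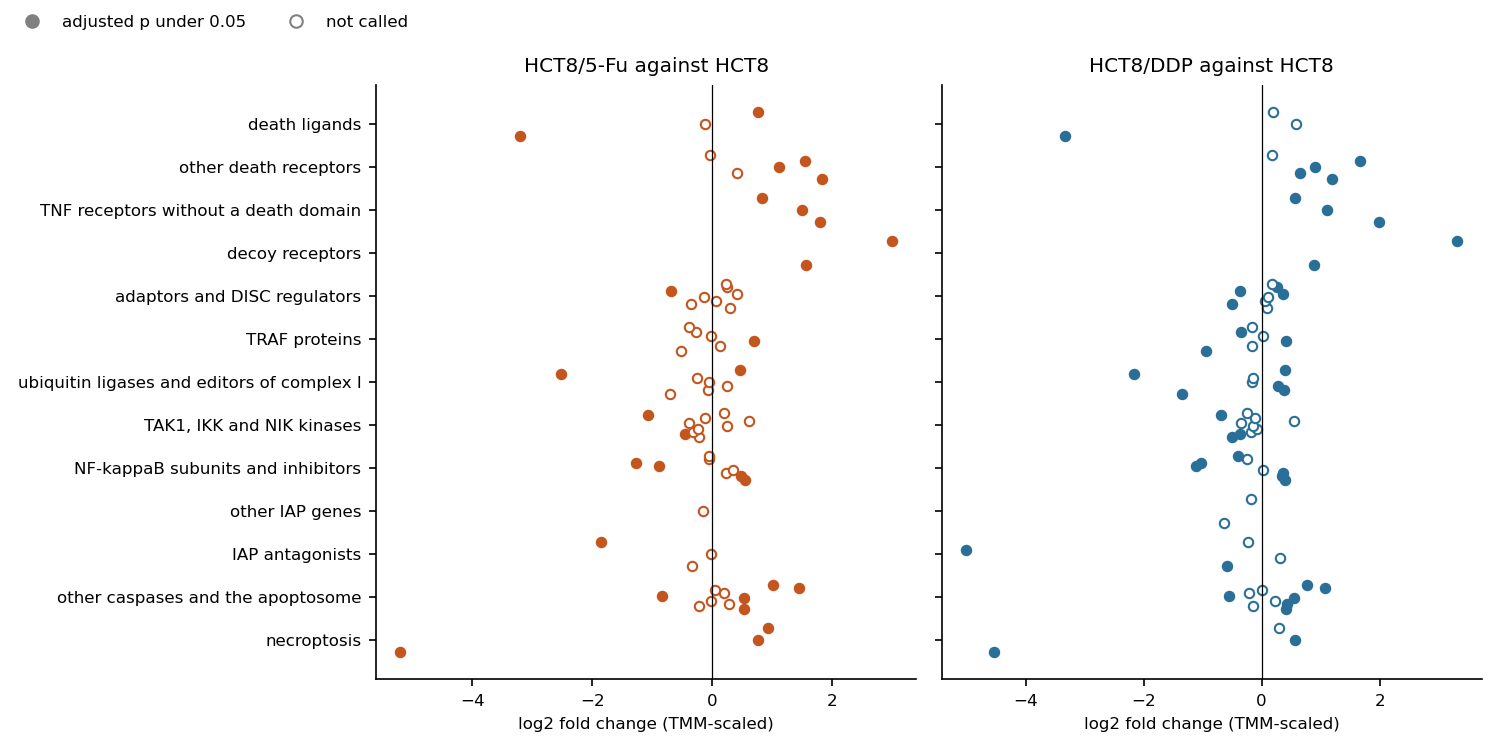
TMM-scaled log2 fold change (x axis) of the tested genes of the 13 pathway lists (y axis), HCT8/5-Fu against HCT8 on the left and HCT8/DDP against HCT8 on the right. Each point is a gene, filled where the edgeR adjusted p was under 0.05. The called genes of the 3 receptor lists all lie right of 0 in both panels. Points include TNFSF10, RIPK3, TNFRSF11B and, on the right, XAF1, which passed the filter on low counts through the higher group alone.

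Among NF-kappaB subunits and inhibitors the calls went both ways. NFKBIA, which holds NF-kappaB in the cytoplasm, had 25.5, 34.4 and 38.5 CPM in HCT8/5-Fu, 37.4, 38.0 and 41.5 CPM in HCT8/DDP, and 89.8, 82.2 and 86.1 CPM in HCT8. It fell by 1.27 (SE 0.182, adjusted p = 0.000826) and 1.02 (SE 0.0915, adjusted p = 1.36e-06) on the log2 scale. TNFAIP3 (A20), a ubiquitin editor that ends TNF receptor signaling, had 4.33, 4.59 and 4.01 CPM in HCT8/5-Fu, 5.96, 5.73 and 4.67 CPM in HCT8/DDP, and 40.0, 21.6 and 19.3 CPM in HCT8. It fell by 2.52 (SE 0.273, adjusted p = 0.000184) and 2.17 (SE 0.234, adjusted p = 6.85e-06), and HCT8 replicate 1 was the highest of the HCT8 libraries. REL, a subunit, fell by 0.89 (adjusted p = 0.00312) and 1.11 (adjusted p = 2.73e-05), with 28.9, 19.9 and 21.1 CPM in HCT8/5-Fu, 22.4, 19.1 and 17.5 CPM in HCT8/DDP, and 56.9, 44.2 and 37.9 CPM in HCT8. RELA, another subunit, rose by 0.37 in HCT8/DDP (adjusted p = 0.00474), a call that was lost with library totals (0.25, adjusted p = 0.0514) and with all 9 libraries in 1 fit (adjusted p = 0.0548). In HCT8/5-Fu it had 0.23 (adjusted p = 0.283), and 0.40 without HCT8/5-Fu replicate 1 (adjusted p = 0.00591). Of the 8 genes of this list, 2 rose and 2 fell in HCT8/5-Fu, where 20.4% and 18.3% of all genes did. In HCT8/DDP 3 rose and 3 fell, where 27.0% and 25.5% of all genes did.

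TNFAIP3 and NFKBIA are shown beside BIRC3 because all 3 hold the NF-kappaB consensus close to the start and all 3 were lower in both resistant lines. They were picked for display after their values were seen. The stretches are chr6:137867170-137867235 (plus strand, matches 67 and 55 bases before the start) and chr14:35404799-35404852 (minus strand, match 81 bases before the start), from RefSeq (GRCh38.p14), with the matches in capitals.
TNFAIP3: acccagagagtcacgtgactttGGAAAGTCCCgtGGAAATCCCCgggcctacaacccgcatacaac
NFKBIA: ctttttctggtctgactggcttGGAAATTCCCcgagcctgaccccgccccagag
The second match of TNFAIP3 has the same 10 letters as that of BIRC3. TRAF3, which rose in both lines, holds these letters too, on the other strand and 33 bases before the start. The letters of the NFKBIA match were also in NFKB1 (called higher in both lines), REL (called lower in both) and NFKBIB (called in neither). The NFKB1 calls were marginal (edgeR adjusted p = 0.0493 in HCT8/5-Fu and 0.0336 in HCT8/DDP), and its CPM overlapped HCT8 in both lines. Both calls were lost with library totals (adjusted p = 0.116 and 0.172). The consensus was in 15 of the 59 pathway genes with a window (25.4%, against 9.16% of all genes with a window). In HCT8/5-Fu it was in 5 of 14 genes that rose (35.7%), 3 of 9 that fell (33.3%) and 6 of 30 that were not called (20%). In HCT8/DDP it was in 5 of 17 (29.4%), 4 of 15 (26.7%) and 5 of 22 (22.7%). Genes with the match were thus found in each class, and the differences between these shares were not tested.

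In the upstream kinases, 2 of 10 fell in HCT8/5-Fu and 3 of 10 in HCT8/DDP, shares near those of all genes (18.3% and 25.5%). MAP3K7 (TAK1), the kinase that RIPK1 ubiquitin chains recruit, fell by 0.51 in HCT8/DDP (adjusted p = 0.000393) and had -0.23 in HCT8/5-Fu (adjusted p = 0.136), or -0.31 without HCT8/5-Fu replicate 1 (adjusted p = 0.014). IKBKE, an IKK-related kinase, had 8.57, 7.25 and 5.82 CPM in HCT8/5-Fu, 8.33, 8.63 and 10.9 CPM in HCT8/DDP, and 20.0, 14 and 15 CPM in HCT8. It fell by 1.08 (adjusted p = 0.00259) and 0.69 (adjusted p = 0.00466). Among adaptors and DISC regulators, CASP8AP2 (FLASH), which binds CASP8, fell by 0.69 (adjusted p = 0.00115) in HCT8/5-Fu and 0.36 (adjusted p = 0.0063) in HCT8/DDP. TRAF3, a TRAF that limits NIK, rose by 0.70 in HCT8/5-Fu (adjusted p = 0.00624) and by 0.42 in HCT8/DDP (adjusted p = 0.0112, but 0.0669 without HCT8 replicate 3 and 0.0815 with library totals).

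Among the other caspases and the apoptosome, 4 of 10 genes rose in HCT8/5-Fu and 5 in HCT8/DDP (20.4% and 27.0% of all genes), and 1 fell in each. DFFA, the inhibitor and chaperone of the caspase-activated nuclease, had 362, 367 and 364 CPM in HCT8/5-Fu, 234, 301 and 306 CPM in HCT8/DDP, and 159, 140 and 136 CPM in HCT8. It rose by 1.44 (adjusted p = 4.91e-05) and 1.07 (adjusted p = 7.16e-06). DFFB, the nuclease, rose by 1.01 (adjusted p = 0.000818) and 0.76 (adjusted p = 0.00029). APAF1, the scaffold of the apoptosome, had 35.1, 30.6 and 30.7 CPM in HCT8/5-Fu, 35.4, 39.5 and 40.7 CPM in HCT8/DDP, and 67.0, 55.8 and 62.2 CPM in HCT8, and it fell by 0.84 (adjusted p = 0.000468) and 0.56 (adjusted p = 0.000525).

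Necroptosis is a caspase-independent death that RIPK1 can start. RIPK3, the kinase partner of RIPK1, had 0.252, 0 and 0 CPM in HCT8/5-Fu, 0.148, 0.179 and 0 CPM in HCT8/DDP, and 2.68, 3.02 and 2.90 CPM in HCT8. These are 5, 9 and 191 counts per line. RIPK3 passed the filter through HCT8 alone, so no test is given, and it was named after its values were seen. MLKL, its substrate, which opens the plasma membrane, had 49.0, 44.8 and 50.5 CPM in HCT8/5-Fu, 40.8, 40.4 and 42.7 CPM in HCT8/DDP, and 35.5, 26.3 and 29.7 CPM in HCT8. It rose by 0.77 (adjusted p = 0.00211) and 0.56 (adjusted p = 0.00105).

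Of the other IAP genes, BIRC5 (survivin) had 30.8, 71.0 and 70.4 CPM in HCT8/5-Fu, 64.2, 51.2 and 54.5 CPM in HCT8/DDP, and 70.2, 69.3 and 70.3 CPM in HCT8. HCT8/5-Fu replicate 1 was the lowest of the 9 libraries. NAIP, which has near-identical copies, stayed under 1 CPM in every library. Both were named after their values were seen.

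Between HCT8/DDP and HCT8/5-Fu, where edgeR called 1.51% of genes higher and 0.753% lower, 1 of the 68 pathway genes tested differed. SEPTIN4, whose ARTS isoform antagonizes XIAP, had 17.4, 14.9 and 10.7 CPM in HCT8/DDP and 4.43, 5.50 and 4.08 CPM in HCT8/5-Fu, beside 15.1, 20.3 and 18.9 CPM in HCT8. It was higher in HCT8/DDP by 1.60 (SE 0.23, adjusted p = 0.0271). Against HCT8 it fell by 1.85 (adjusted p = 0.000281) in HCT8/5-Fu and had -0.23 (adjusted p = 0.311) in HCT8/DDP. The call between the resistant lines was lost without any 1 HCT8/DDP library or without HCT8/5-Fu replicate 2 or 3, with a log2 difference of 1.45 to 1.78 and an adjusted p of 0.0673 to 0.229 in fits that called 0 genes in all. No pathway gene was called lower by edgeR, with 12 at an unadjusted p under 0.05 and 4 called by DESeq2. Without HCT8/5-Fu replicate 1, 6 pathway genes were called higher and 14 lower.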

How the data were processed

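Total RNA of the parental line HCT8 and of the resistant lines HCT8/5-Fu and HCT8/DDP was depleted of rRNA and sequenced in 3 libraries per line. The study's methods describe RNase R treatment for circRNAs, and whether the mRNA values come from treated libraries is not given in the sources used here. The submitters' processing notes name HISAT2, DESeq2 and the mouse build mm9. The deposited coordinates overlapped those of GRCh38.p14 for 18674 of the 18676 genes matched by symbol, so the file is in human coordinates. The authors deposited a read count for each gene and library, with its FPKM. The deposited FPKM equalled count over gene length and library total for 100% of 179784 values within a relative tolerance of 1e-06. How the counting treated strand and shared reads is not given in the sources used here. The circRNA, miRNA and lncRNA tables were not used here, and 0 columns of other series were used.

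CPM was count over library total. Differences were fitted with edgeR 4.0.16 (quasi-likelihood, TMM, filterByExpr, R 4.3.3) on the 6 libraries of each comparison, and p-values were adjusted by Benjamini-Hochberg over all genes tested, with calls at 0.05. The SE is the size of the log2 difference divided by the square root of F. The fit was tested on simulated data. The 10 genes, the 13 lists and the marker lists were chosen with earlier results of these data known. Named pathway genes are up to 4 per list with the smallest adjusted p, a call there and at least 10 CPM on average in the higher line, of which some are given. Genes named outside that rule are stated as such. Alternatives were DESeq2 1.42.0, library totals, DESeq2 size factors, no filter, all 9 libraries in 1 fit, a replicate block, a log2 limit of 1, and each library left out. Promoter windows came from RefSeq tables, with those on chromosome 8 left out.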

Additional observations from a re-analysis of the deposited data

Results flagged for a closer look

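SEPTIN4, whose ARTS isoform antagonizes XIAP, differed between the resistant lines: its log2 fold change in HCT8/DDP against HCT8/5-Fu was 1.60 (edgeR adjusted p = 0.0271, higher in 3 of 3 HCT8/DDP libraries). It stands out because against HCT8 it fell by 1.85 in HCT8/5-Fu and had -0.23 in HCT8/DDP, which did not pass the test, and the direct comparison of the lines is the test of that difference. It was the single pathway gene called there. The call was lost with the replicate block (1.59, adjusted p = 0.0945) and in 5 of the 6 fits with a library left out (1.45 to 1.78, adjusted p = 0.0673 to 0.229).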

How the results depend on the processing

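The 10 IAP and death receptor genes have no test. Under the other settings with all libraries, each kept the sign of its difference from HCT8 in both resistant lines, and the 3 large differences (BIRC3, CASP10 and TNFRSF10A) also kept theirs with any 1 library left out. The number of genes called depended on the settings. With 1 library left out, HCT8/5-Fu had 1731 to 3819 genes higher and 1543 to 3714 lower (2694 and 2424 with all). Its highest counts were without HCT8/5-Fu replicate 1. HCT8/DDP had 3056 to 4102 higher and 2739 to 3922 lower (3613 and 3406 with all), with the highest counts without HCT8 replicate 1. Pathway genes were 12 to 25 higher and 9 to 20 lower in HCT8/5-Fu, and 16 to 27 and 15 to 20 in HCT8/DDP. HCT8/DDP against HCT8/5-Fu gave 0 to 1832 higher and 0 to 2097 lower, and 0 to 6 and 0 to 14 pathway genes, with every call made without HCT8/5-Fu replicate 1. The other 5 fits called 0 genes by edgeR, with 1527 to 2551 genes at an unadjusted p under 0.05. With a log2 limit of 1, the counts were 994 higher and 1174 lower in HCT8/5-Fu (pathway 9 and 6), 1177 and 986 in HCT8/DDP (pathway 6 and 7), and 69 and 17 between the resistant lines. Library totals gave 15 pathway genes higher in HCT8/DDP, and moved the share of calls that were higher to 41.3% (2036 against 2891 lower) in HCT8/5-Fu and 38.4% (2751 against 4411) in HCT8/DDP, beside 52.6% and 51.5% with TMM. Between the resistant lines (197 higher, 98 lower), DESeq2 gave 723 and 560 (4 pathway genes lower), DESeq2 size factors 1 pathway gene lower, and all 9 libraries in 1 fit 450 and 185 (1 pathway gene lower). The cause of these shifts was not tested.

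The replicate numbers were not taken to pair the libraries, since same-numbered libraries had deviations correlated at -0.269 to 0.102. With the replicate block, HCT8/DDP against HCT8/5-Fu had 0 genes higher and 0 lower by edgeR (2277 at an unadjusted p under 0.05), 0 of them pathway genes. HCT8/5-Fu had 2434 and 2340, and HCT8/DDP 3492 and 3213.

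Small differences turned sign. Between HCT8/DDP and HCT8/5-Fu, DAXX was at 0.012 with library totals, 0.0083 with all 9 libraries in 1 fit, 0.039 with the replicate block, and between -0.23 and 0.14 with 1 library left out (-0.0028 with all). The range with 1 library left out also spanned 0 for CRADD (-0.30 to 0.17), DEDD2 (-0.20 to 0.070), SHARPIN (-0.083 to 0.10), RELA (-0.045 to 0.24) and CASP9 (-0.077 to 0.13) between these lines, and for RBCK1 in HCT8/5-Fu against HCT8 (-0.18 to 0.028). These values are log2 differences, and for CRADD, SHARPIN and RELA the fit without HCT8/5-Fu replicate 1 turned the sign. Over all named pathway genes, comparisons and alternatives, a call was lost in 49 fits with a library left out and under 26 other settings, and gained in 20 and 6. At these depths, genes under about 1 CPM had few counts, so TNF and RIPK3 are limited by counting error.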
